A study of Canis lupus familiaris with 4 samples.

Results

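The genes described here are the nuclear-encoded genes of oxidative phosphorylation (OXPHOS), the respiratory chain and ATP synthase of mitochondria. A list of 56 genes was taken by symbol: 23 subunits of complex I, the pair NDUFA4 and NDUFA4L2, 4 subunits of complex II, 7 of complex III, cytochrome c, 11 subunits of complex IV and 8 of complex V. Every probe set whose only gene symbol in the platform annotation was one of these was used, which gave 90 of 42924 probe sets and 46 of the 56 genes. The other 10 genes were not named by a probe set of their own: NDUFA1 in complex I, UQCRB in complex III, COX5A, COX6A1, COX6B1, COX6C, COX7A2, COX7B and COX7C in complex IV, and ATP5PB in complex V. NDUFA1, UQCRB and COX5A appeared only in probe sets shared with another gene. Complex IV is therefore described here from 4 of 11 genes.

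The study measured RNA of MDCKII cells, an established epithelial line from dog kidney, on 4 Affymetrix arrays with 1 array in each group. The groups carry the labels HIF1A KD (knockdown) in hypoxia, HIF1A WT in hypoxia, HIF1A KD in normoxia and HIF1A WT in normoxia. Cells of all groups spent 24 h in normoxia first and then 24 h more in the labelled oxygen condition. The sources used here give neither the method of the knockdown, nor the oxygen level, nor how many clones or cultures stand behind an array.

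The respiratory chain passes electrons from NADH (complex I) and succinate (complex II) through ubiquinone, complex III and cytochrome c to oxygen at complex IV, and complex V makes ATP from the proton gradient that results. Most subunits are encoded in the nucleus and a few in mitochondrial DNA. In human and mouse cells under low oxygen, HIF-1, the transcription factor whose oxygen-regulated subunit is HIF1A, is known to induce the isoforms COX4I2 and NDUFA4L2 and to reduce pyruvate entry into mitochondria through PDK1. The design addresses how hypoxia alters gene expression in these kidney cells and what part HIF1A has in it.

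HIF1A itself went against the knockdown label. Its intensity was 625 (KD) and 675 (WT) in the arrays labelled hypoxia, against 3435 (KD) and 3651 (WT) in those labelled normoxia. The difference KD minus WT was -0.11 on the log2 scale in hypoxia and -0.088 in normoxia. The hypoxia term of the model described below was -2.42 (SE 0.077, limma adjusted p = 4.44e-07) and the genotype term -0.098 (adjusted p = 0.494). A further HIF1A probe set read 21.6 (KD) and 27.6 (WT) in hypoxia, against 155 (KD) and 135 (WT) in normoxia, and another lay below the detection floor in every array. HIF1A thus differed by the oxygen label and hardly by the genotype label, so each direction given here is that of the labels only. If the arrays labelled KD normoxia and WT hypoxia changed places, the hypoxia and genotype terms would trade their values and calls.

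The arrays were close to one another, with Pearson correlations across probe sets from 0.982 to 0.987, and their number limits the precision. Of 15115 genes with a probe set of their own, 9834 reached the floor in at least 1 array, a floor set at the table's median log2 value (5.96, intensity 46.3). Of 8 epithelial markers, 7 were above it in every array, with summed intensities of 32505 (KD) and 32059 (WT) in hypoxia and 30724 (KD) and 30482 (WT) in normoxia, while CDH1, the epithelial cadherin, was below it in every array. Of 5 fibroblast markers 4 were below the floor everywhere, COL1A1 among them. So were 2 of 4 endothelial markers, PECAM1 and VWF, and 2 of 4 leukocyte markers, CD3E and CD79A. The fibroblast marker PDGFRA, the endothelial markers CDH5 and KDR and the leukocyte marker CD68 reached the floor in all 4 arrays. The leukocyte marker PTPRC reached it in 2. The summed intensities of these 3 lists ranged from 97.1 to 107 for fibroblast markers, from 176 to 267 for endothelial markers and from 276 to 328 for leukocyte markers. Their part in the results was not tested. In bulk RNA, fewer cells of a type and less RNA per cell cannot be told apart.

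Of the 46 OXPHOS genes named by a probe set, 44 were above the floor, each in all 4 arrays, and COX4I2 and NDUFA4L2 were below it in all 4. The probe set with the highest mean stands for a gene, and differences are of log2(intensity + 16). Intensities of different probe sets cannot be set against each other. Of the 44 probe sets, 26 carry a suffix (_s_at or _x_at) that marks probes which may also match other transcripts.

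The OXPHOS genes varied little among the 4 arrays. The ratio of a gene's highest to its lowest intensity had a median of 1.11 and ran from 1.02 (NDUFB10) to 1.40 (NDUFA6). It was under 1.2 for 39 of the 44 genes (88.6%), and the other 5 were NDUFA6, ATP5F1D (1.24), NDUFA9 (1.23), NDUFS1 (1.23) and UQCRQ (1.21). Over all 9834 genes the median ratio was 1.33, with 25.8% under 1.2 and 30.1% at 1.5 or more. The OXPHOS probe sets are bright, and brighter probe sets varied less in these arrays. Among the 626 genes at least as bright as the median OXPHOS gene, the median ratio was 1.12, with 73.8% under 1.2 and 3.67% at 1.5 or more. Among the 3542 genes at least as bright as the dimmest of the 44, it was 1.21, with 45.9% under 1.2 and 12.6% at 1.5 or more. Neither set matches the brightness of the 44 genes, and what brightness adds to their low variation was not tested.

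**Figure D1:**
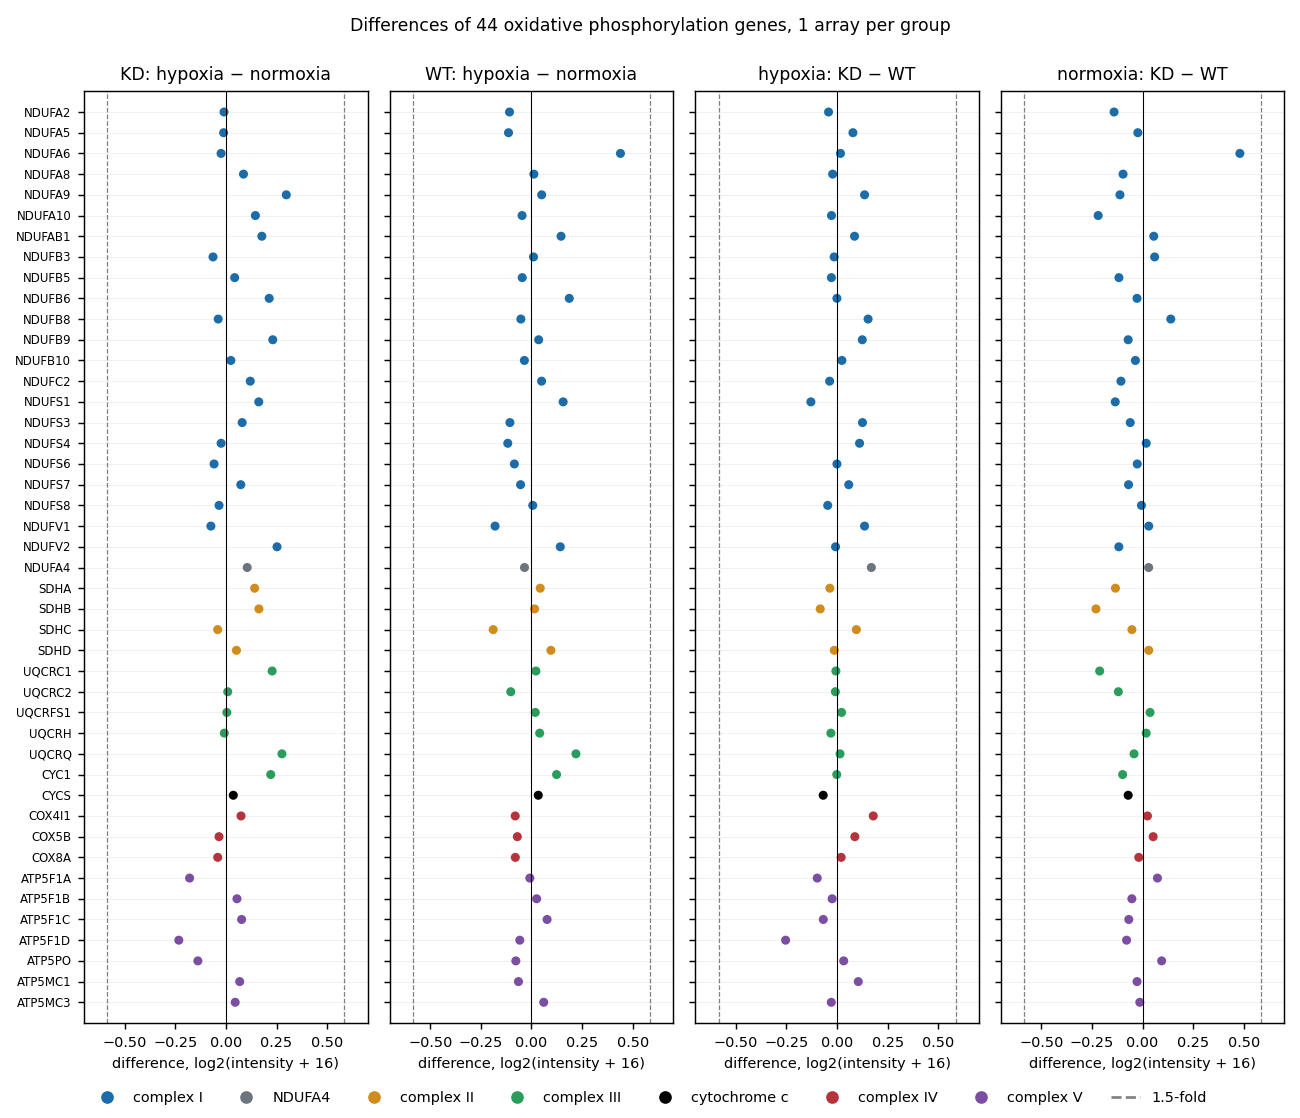
Difference in log2(intensity + 16) of each of the 44 OXPHOS genes above the floor in the 4 comparisons of 2 arrays, grouped by complex. Each point is 1 gene, and the dashed lines mark 1.5-fold. No point reaches them, and the highest is NDUFA6 in the comparison KD minus WT in normoxia (0.48).

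Between the arrays labelled hypoxia and normoxia, no OXPHOS gene differed as much as 1.5-fold. In KD cells 0 of 44 passed 1.5-fold upward and 0 downward, beside 3.41% and 4.05% of all genes. In WT cells the counts were again 0 and 0, beside 3.34% and 2.88% of all genes. Among the 626 bright genes, 1.44% in KD cells and 0.639% in WT cells passed 1.5-fold in either direction. The median over the 44 genes was 0.049 in KD cells, with 28 higher and 16 lower, and 0.0081 in WT cells, with 23 higher and 21 lower. Over all genes the median was 0.016 in KD cells, with 52.5% of genes higher, and 0.014 in WT cells, with 52.4% higher. Over the bright genes it was 0.031 in KD cells and 0.025 in WT cells.

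The same held for the genotype labels. In hypoxia 0 of 44 genes passed 1.5-fold upward in the KD array and 0 downward, beside 2.74% and 2.59% of all genes, and in normoxia 0 and 0 beside 3.76% and 2.82%. Of the 626 bright genes, 0.16% in hypoxia and 0.479% in normoxia passed 1.5-fold either way. The median KD minus WT difference over the OXPHOS genes was -0.0010 in hypoxia, with 20 higher and 24 lower, and -0.039 in normoxia, with 14 higher and 30 lower. Over all genes 47.9% were higher in hypoxia (median -0.0099) and 48.4% in normoxia (median -0.011). Over the bright genes the medians were -0.0077 in hypoxia and -0.024 in normoxia.

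The difference of the responses is coded as WT minus KD, each response being hypoxia minus normoxia. It passed 1.5-fold for 0 of 44 genes upward and 0 downward, beside 4.11% and 3.44% of all genes, and 0.319% of the bright genes either way. Its median was -0.065, with 10 genes above 0 and 34 below, while 49% of all genes were above 0 (median -0.0062). The median over the bright genes was -0.011, with 289 of 626 above 0. Over the OXPHOS genes the difference of the responses ran from -0.25 (NDUFA9) to 0.46 (NDUFA6). The array labelled KD normoxia enters both the KD hypoxia response and the normoxia genotype difference, and it gave the lowest of the 4 values for 21 of the 44 genes (47.7%). That array was lowest for 43.5% of the bright genes and 31% of all genes. Its part in the difference of the responses was not tested.

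A test over all 4 arrays was possible only with an additive model of genotype and oxygen, fitted with limma to all 9834 genes. The model leaves 1 residual degree of freedom beside a prior of 8.10 degrees of freedom, so its variance comes mostly from other genes of like intensity and does not hold the spread between cultures. For the hypoxia term 2 of the 44 OXPHOS genes rose and 0 fell at an adjusted p under 0.05, beside 4.72% of all genes that rose and 4.17% that fell. Among the 626 bright genes 7.83% rose and 5.75% fell. The genes that rose were UQCRQ and NDUFB6. For the genotype term limma called 0 genes that rose and 0 that fell, with 2 genes (4.55%) at an unadjusted p under 0.05, beside 22.3% of all genes and 22.4% of the bright genes. For hypoxia 5 genes (11.4%) were at such a p, beside 23.7% and 33.7%. In the genotype term 2.94% of all genes rose and 2.43% fell, and of the bright genes 3.04% each way.

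The intervals of the 42 genes not called bound what the model allows. The 95% interval of each of the 44 genes lay within 1.5-fold in both directions, for the hypoxia term and for the genotype term. So did the intervals of 6946 (hypoxia) and 6979 (genotype) of all 9834 genes. Of the 626 bright genes, 614 (hypoxia) and 616 (genotype) had such intervals, so this is common among genes of this brightness. The median half-width for the 44 OXPHOS genes was 0.14. The median estimate was 0.014 for hypoxia and -0.0093 for genotype. An adjusted p above the threshold does not show that a gene kept its level, and its interval gives the range of differences that this model allows.

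**Figure D2:**
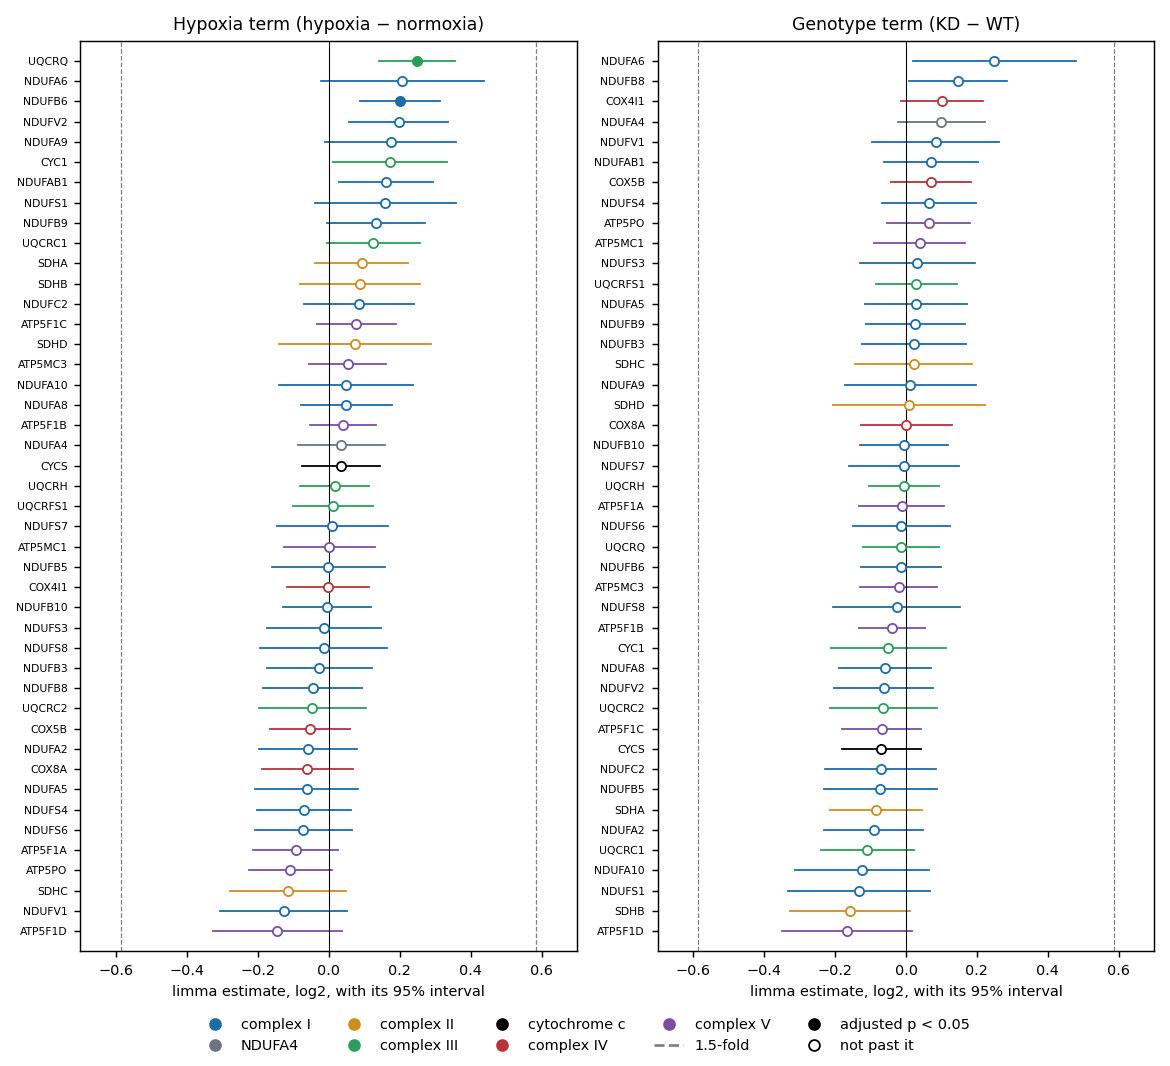
Estimates of the hypoxia term and of the genotype term (log2 scale) with 95% limma intervals for the 44 OXPHOS genes. Filled points have an adjusted p under 0.05, and these are UQCRQ and NDUFB6 in the hypoxia term, with none in the genotype term.

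Complex I, the NADH dehydrogenase at the entry of the chain, had 22 genes above the floor. Of these 1 rose (4.55%, beside 4.72% of all genes) and 0 fell (beside 4.17%) in the hypoxia term, and none was called for genotype. Their median difference between hypoxia and normoxia was 0.058 in KD cells, with 13 higher and 9 lower, and -0.014 in WT cells, with 11 higher and 11 lower. KD minus WT had a median of 0.0082 in hypoxia and -0.048 in normoxia.

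NDUFB6, an accessory subunit of the membrane arm, is the complex I gene that rose. Its intensity was 7259 (KD) and 7262 (WT) in the arrays labelled hypoxia, against 6259 (KD) and 6380 (WT) in those labelled normoxia. Both hypoxia arrays lay above both normoxia arrays. The hypoxia term was 0.20 (SE 0.050, 95% interval 0.087 to 0.31, limma adjusted p = 0.0394), and the genotype term was -0.014 (adjusted p = 0.903). Other NDUFB6 probe sets gave hypoxia differences of 0.31 (KD) and 0.11 (WT), and of 0.35 (KD) and 0.50 (WT). The call is lost without the floor (adjusted p = 0.190) and without the intensity trend of the prior (adjusted p = 0.335).

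The peripheral arm, which carries the redox centres, did not pass the test in any member. NDUFV2, which holds an iron-sulfur cluster next to the flavin, read 4229 (KD) and 4251 (WT) in hypoxia, against 3549 (KD) and 3851 (WT) in normoxia. Both hypoxia values were the higher ones (hypoxia term 0.20, adjusted p = 0.0851). NDUFV1, which binds the flavin that takes electrons from NADH, lay the other way, with 1524 (KD) and 1386 (WT) in hypoxia against 1606 (KD) and 1572 (WT) in normoxia (hypoxia term -0.13, adjusted p = 0.379). NDUFS1, the largest iron-sulfur subunit, read 824 (KD) and 903 (WT) in hypoxia, against 735 (KD) and 808 (WT) in normoxia. It was higher by at least 0.1 with hypoxia in both genotypes and lower by at least 0.1 in KD cells in both oxygen conditions. Of its 3 other probe sets, 1 had these signs with larger KD minus WT differences (-0.31 in hypoxia and -0.42 in normoxia). Another was higher in KD cells (0.050 and 0.20) and lower with hypoxia in them (-0.051), and the last was lower with hypoxia in WT cells (-0.11). The iron-sulfur subunits NDUFS7 and NDUFS8 had hypoxia terms of 0.0097 and -0.014. NDUFS3, a core subunit of this arm, was at -0.013.

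Among accessory subunits NDUFA6 stood apart through 1 array. NDUFA6, a small protein of the LYR family that binds the mitochondrial acyl carrier protein, read 2839 (KD) and 2806 (WT) in hypoxia, against 2887 (KD) and 2065 (WT) in normoxia. The value in WT normoxia was the low one, and the other 3 lay between 2806 and 2887. The differences were therefore 0.44 for WT hypoxia minus normoxia and 0.48 for KD minus WT in normoxia, and -0.024 and 0.017 in the pairs without that array. The genotype term was 0.25 (95% interval 0.019 to 0.48, adjusted p = 0.189) and the hypoxia term 0.21 (adjusted p = 0.257). Another NDUFA6 probe set reached the floor only in WT hypoxia and 1 more in no array, so neither gives a further measurement.

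NDUFA9, an accessory subunit near the ubiquinone site, read 2398 (KD) and 2181 (WT) in hypoxia, against 1947 (KD) and 2105 (WT) in normoxia. It was higher with hypoxia by 0.30 in KD cells and 0.050 in WT cells, and a second probe set gave 0.29 and 0.078. NDUFB9, another LYR protein, read 6448 (KD) and 5913 (WT) in hypoxia against 5491 (KD) and 5769 (WT) in normoxia, so KD hypoxia was the highest and KD normoxia the lowest array, as for NDUFA9. Its second probe set was also lowest in KD normoxia but highest in WT hypoxia. NDUFA10, an accessory subunit related to nucleoside kinases, read 1490 (KD) and 1519 (WT) in hypoxia against 1346 (KD) and 1569 (WT) in normoxia. Its KD minus WT difference in normoxia, -0.22, was the lowest in complex I.

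The acyl carrier protein NDUFAB1, which also serves fatty acid and lipoic acid synthesis in mitochondria, read 4507 (KD) and 4244 (WT) in hypoxia, against 3984 (KD) and 3834 (WT) in normoxia. Both hypoxia arrays were the higher ones (hypoxia term 0.16, adjusted p = 0.129). The same held in 2 of its 3 other probe sets above the floor in every array, while the last was lower with hypoxia in KD cells (-0.12). Its remaining probe sets did not reach the floor in every array. NDUFB8, a membrane-arm subunit often used as a marker of assembled complex I, read 3581 (KD) and 3218 (WT) in hypoxia against 3678 (KD) and 3338 (WT) in normoxia. Here both KD arrays lay above both WT arrays (genotype term 0.15, 95% interval 0.0072 to 0.29, adjusted p = 0.202). NDUFA2 read 3768 (KD) and 3879 (WT) in hypoxia against 3793 (KD) and 4183 (WT) in normoxia, with WT normoxia the highest, but its second probe set was higher with hypoxia (0.11 in KD and 0.14 in WT cells). The other complex I genes above the floor, NDUFA5, NDUFA8, NDUFB3, NDUFB5, NDUFB10, NDUFC2, NDUFS4 and NDUFS6, had hypoxia terms from -0.072 (NDUFS6) to 0.085 (NDUFC2) and genotype terms from -0.072 (NDUFB5) to 0.064 (NDUFS4).

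Complex II, succinate dehydrogenase, is encoded wholly in the nucleus, and its 4 genes were all above the floor with none called in either term. SDHA, the flavoprotein that oxidises succinate, read 4913 (KD) and 5036 (WT) in hypoxia against 4452 (KD) and 4887 (WT) in normoxia. SDHB, the iron-sulfur subunit, read 2108 (KD) and 2234 (WT) in hypoxia against 1882 (KD) and 2210 (WT) in normoxia. In both of these KD normoxia was the low array, and the SDHB difference KD minus WT in normoxia, -0.23, was the lowest of all 44 genes in that pair. SDHC, a membrane anchor, read 2360 (KD) and 2208 (WT) in hypoxia against 2428 (KD) and 2519 (WT) in normoxia, and its WT hypoxia difference of -0.19 was the lowest of the 44. Its 2 other probe sets gave -0.035 and -0.17 in that pair. SDHD, the other anchor and the dimmest of the 44 probe sets, read 582 (KD) and 588 (WT) in hypoxia against 561 (KD) and 549 (WT) in normoxia. The estimates for the 4 genes ran from -0.12 (SDHC) to 0.092 (SDHA) for hypoxia and from -0.16 (SDHB, adjusted p = 0.261) to 0.021 (SDHC) for genotype.

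Complex III, which passes electrons from ubiquinol to cytochrome c, had 6 genes above the floor. Of these 1 rose (16.7%, beside 4.72% of all genes) and 0 fell (beside 4.17%) in the hypoxia term. Their median hypoxia difference was 0.11 in KD cells (range -0.0080 to 0.28) and 0.031 in WT cells (range -0.10 to 0.22). In each genotype 5 of 6 were higher, beside 52.5% of all genes in KD cells and 52.4% in WT cells. No difference from all genes was tested. The gene that rose was UQCRQ, a small subunit that lies beside cytochrome b. It read 9034 (KD) and 8941 (WT) in hypoxia, against 7456 (KD) and 7678 (WT) in normoxia. Both hypoxia arrays exceeded both normoxia arrays, and the genotypes were close in each condition. The hypoxia term was 0.25 (SE 0.048, 95% interval 0.14 to 0.36, limma adjusted p = 0.0129) and the genotype term -0.014 (adjusted p = 0.900). A second UQCRQ probe set read 6145 (KD) and 5968 (WT) in hypoxia against 4930 (KD) and 5198 (WT) in normoxia, differences of 0.32 and 0.20. The call is lost without the floor (adjusted p = 0.136) and without the intensity trend (adjusted p = 0.281).

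CYC1, cytochrome c1, read 2353 (KD) and 2355 (WT) in hypoxia, against 2017 (KD) and 2160 (WT) in normoxia. Both hypoxia arrays were again the higher ones, but the hypoxia term of 0.17 did not pass the test (adjusted p = 0.184). The core proteins UQCRC1 and UQCRC2 differed in pattern. UQCRC1 read 8397 (KD) and 8430 (WT) in hypoxia against 7167 (KD) and 8303 (WT) in normoxia, with KD normoxia the low array. UQCRC2 read 2972 (KD) and 2989 (WT) in hypoxia against 2954 (KD) and 3210 (WT) in normoxia, with WT normoxia the high one. A dimmer UQCRC2 probe set was highest in KD normoxia, with 148 (KD) and 138 (WT) in hypoxia against 211 (KD) and 153 (WT) in normoxia. UQCRFS1, the Rieske iron-sulfur protein, read 6707 (KD) and 6604 (WT) in hypoxia and 6687 (KD) and 6519 (WT) in normoxia. UQCRH, the hinge protein, read 10558 (KD) and 10784 (WT) in hypoxia and 10617 (KD) and 10487 (WT) in normoxia. For UQCRFS1 and UQCRH the differences in the 4 comparisons ran from -0.031 to 0.040, but a second UQCRFS1 probe set was lower in KD cells (-0.11 in hypoxia and -0.10 in normoxia). Further UQCRH probe sets above the floor in every array were higher in KD cells, by 0.27 and 0.15 in hypoxia and by 0.094 and 0.097 in normoxia. Cytochrome c itself, CYCS, read 6995 (KD) and 7336 (WT) in hypoxia against 6822 (KD) and 7167 (WT) in normoxia, so each KD array was slightly below its WT array (genotype term -0.070, adjusted p = 0.442).

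**Figure D3:**
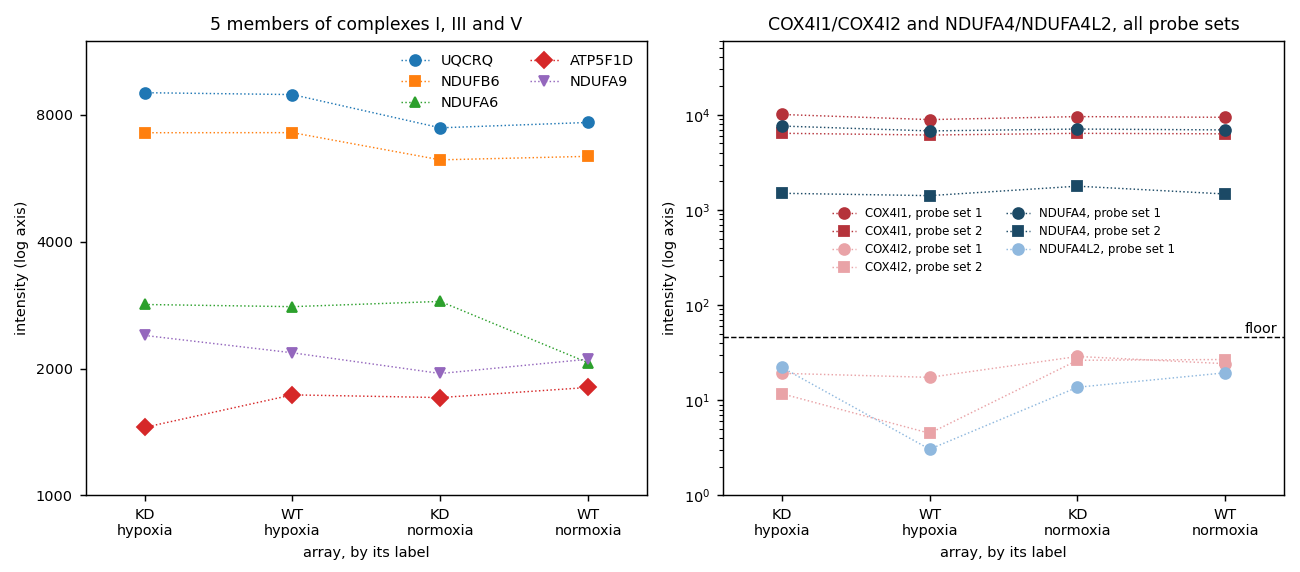
Deposited intensity (log axis) in the 4 arrays, with hypoxia left of normoxia and KD left of WT, for UQCRQ, NDUFB6, NDUFA6, ATP5F1D and NDUFA9 (left) and for every probe set of COX4I1, COX4I2, NDUFA4 and NDUFA4L2 (right). The line at 46.3 is the floor, below which all COX4I2 and NDUFA4L2 values lie. Heights of different probe sets are not comparable.

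Complex IV, cytochrome c oxidase, had 3 genes above the floor. COX4I1, the common isoform of the regulatory subunit 4, read 10076 (KD) and 8900 (WT) in hypoxia against 9569 (KD) and 9411 (WT) in normoxia. KD hypoxia was the highest array and WT hypoxia the lowest, so hypoxia minus normoxia was 0.074 in KD cells and -0.080 in WT cells. Its second probe set read 6393 (KD) and 6126 (WT) in hypoxia against 6387 (KD) and 6306 (WT) in normoxia, in the same order but with differences of 0.0013 and -0.042. The hypoxia term was -0.0030 (95% interval -0.12 to 0.11) and the genotype term 0.10 (95% interval -0.015 to 0.22, adjusted p = 0.285).

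COX4I2, the isoform that replaces COX4I1 under low oxygen in human and mouse cells, was below the floor in each array by both probe sets. The first read 19.2 (KD) and 17.4 (WT) in hypoxia and 28.9 (KD) and 24.3 (WT) in normoxia. The second read 11.7 (KD) and 4.50 (WT) in hypoxia and 26.3 (KD) and 26.8 (WT) in normoxia. No COX4I2 signal above the floor appeared in either oxygen condition, and no fold is given between values below it. A probe set below the floor does not show that the transcript was absent.

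LONP1, the mitochondrial protease that is known to degrade COX4I1 protein in hypoxic human and mouse cells, read 1134 (KD) and 1140 (WT) in hypoxia against 1860 (KD) and 1185 (WT) in normoxia. KD normoxia was the single high array, 0.64 above WT normoxia. Neither limma term passed (adjusted p = 0.120 for hypoxia and 0.203 for genotype). The other complex IV genes above the floor had small differences. COX5B, a zinc-binding subunit, read 7003 (KD) and 6587 (WT) in hypoxia and 7171 (KD) and 6915 (WT) in normoxia. COX8A, a small membrane subunit, read 4469 (KD) and 4406 (WT) in hypoxia and 4597 (KD) and 4658 (WT) in normoxia. Their hypoxia terms were -0.052 and -0.060, with intervals from -0.16 to 0.060 and from -0.19 to 0.068. The 3 other COX8A probe sets were also lower with hypoxia, by 0.011 to 0.12 in KD cells and by 0.0085 to 0.18 in WT cells.

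The second isoform pair is NDUFA4 and NDUFA4L2. NDUFA4, first described as a complex I protein and later assigned to complex IV, read 7615 (KD) and 6770 (WT) in hypoxia against 7080 (KD) and 6934 (WT) in normoxia. Its other probe set read 1497 (KD) and 1414 (WT) in hypoxia against 1778 (KD) and 1472 (WT) in normoxia. The highest array was KD hypoxia in one probe set and KD normoxia in the other, and the KD hypoxia difference had opposite signs, 0.10 and -0.25. By both probe sets each KD array lay above its WT array. The hypoxia term was 0.035 (adjusted p = 0.753) and the genotype term 0.10 (95% interval -0.023 to 0.22, adjusted p = 0.319).

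NDUFA4L2, the paralogue that HIF-1 induces in human and mouse cells, where it restrains complex I, had 1 probe set. It read 22.2 (KD) and 3.06 (WT) in hypoxia and 13.7 (KD) and 19.5 (WT) in normoxia, below the floor in each array. As for COX4I2, the hypoxia-linked isoform gave no signal above the floor in any array, while its partner was well above it.

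Complex V, the ATP synthase, had 7 genes above the floor and none called in either term. Of the catalytic head, ATP5F1A, subunit alpha, read 8941 (KD) and 9569 (WT) in hypoxia against 10127 (KD) and 9624 (WT) in normoxia. ATP5F1B, subunit beta with the catalytic sites and the brightest of the 44 probe sets, read 12341 (KD) and 12550 (WT) in hypoxia against 11885 (KD) and 12329 (WT) in normoxia. ATP5F1A was thus lowest in KD hypoxia and highest in KD normoxia, while ATP5F1B varied by less than 0.1 on the log2 scale. A second ATP5F1A probe set read 6899 (KD) and 7628 (WT) in hypoxia against 6669 (KD) and 7100 (WT) in normoxia, with WT hypoxia highest and KD normoxia lowest, so the order of the arrays depended on the probe set. The central stalk subunits had hypoxia differences of opposite sign. ATP5F1C, subunit gamma, read 6963 (KD) and 7299 (WT) in hypoxia against 6599 (KD) and 6919 (WT) in normoxia, a hypoxia difference of 0.077 in each genotype.

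ATP5F1D, subunit delta, read 1451 (KD) and 1733 (WT) in hypoxia against 1707 (KD) and 1804 (WT) in normoxia. KD hypoxia was its low array, and its differences of -0.23 (KD hypoxia minus normoxia) and -0.25 (KD minus WT in hypoxia) were the lowest of the 44 genes in those pairs. A second probe set gave -0.25 in both. Its terms were -0.15 for hypoxia (95% interval -0.33 to 0.037, adjusted p = 0.320) and -0.17 for genotype (95% interval -0.35 to 0.016, adjusted p = 0.267). ATP5PO, the peripheral stalk protein OSCP, read 6325 (KD) and 6183 (WT) in hypoxia against 6964 (KD) and 6524 (WT) in normoxia. Both hypoxia arrays were the lower ones (hypoxia term -0.11, adjusted p = 0.246).

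The membrane ring of subunit c is encoded by several genes. ATP5MC1 read 6073 (KD) and 5647 (WT) in hypoxia and 5793 (KD) and 5905 (WT) in normoxia. ATP5MC3 read 7871 (KD) and 8028 (WT) in hypoxia and 7626 (KD) and 7698 (WT) in normoxia. Their hypoxia terms were 0.0017 and 0.053, and neither passed the test.

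The pairs of arrays labelled KD and WT share no array, so their hypoxia differences can be set side by side. They had the same sign for 31 of 44 OXPHOS genes (70.5%), beside 75.1% of the bright genes and 66.3% of all genes. Higher by at least 0.1 in both were NDUFAB1, NDUFB6, NDUFS1, NDUFV2, UQCRQ and CYC1, 6 genes or 13.6%, and 0 were lower by at least 0.1 in both. Of the bright genes 17.1% were higher by 0.1 in both and 8.79% lower, and of all genes 20.2% and 17.6%. The 6 genes belong to complexes I and III, which had 22 and 6 of the 44 genes, and no difference between complexes was tested. For the genotype labels the sign was shared by 30 of 44 genes (68.2%), beside 69% of the bright genes and 66.6% of all genes, with NDUFB8 higher and NDUFS1 lower by at least 0.1 in both pairs (2.27% each). Of the bright genes 7.19% were higher and 10.7% lower by 0.1 in both, and of all genes 17.6% and 20%.

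Several probe sets of 1 gene often differed in sign or order of the arrays at this size of difference. For 26 genes, 36 further probe sets were above the floor in every array. Their median distance from the brightest probe set of the gene was 0.074 for KD hypoxia minus normoxia and 0.063 for WT, and 0.10 and 0.084 for KD minus WT in hypoxia and in normoxia. The median size of the differences themselves was 0.074 and 0.062, and 0.039 and 0.065, so in the median the probe sets of 1 gene lay at least as far apart as the arrays did. The sign was shared by 24 and 28 of the 36 for the hypoxia differences, and by 22 and 26 for the genotype differences.

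NDUFC2, a membrane-arm subunit of complex I, had the widest gaps. Its brightest probe set read 2492 (KD) and 2557 (WT) in hypoxia against 2292 (KD) and 2469 (WT) in normoxia. The other read 85.4 (KD) and 59.5 (WT) in hypoxia against 161 (KD) and 102 (WT) in normoxia, lower with hypoxia by 0.81 in KD cells and 0.65 in WT cells. The first lay slightly higher with hypoxia in both genotypes (0.12 and 0.050) while the second passed 1.5-fold downward. For KD minus WT the second was at 0.425 in hypoxia and 0.586 in normoxia, the latter just past 1.5-fold (0.585). The first was at -0.037 and -0.11 in these pairs. UQCRH also had a dim probe set, which read 63.1 (KD) and 72.8 (WT) in hypoxia against 19.7 (KD) and 18.1 (WT) in normoxia. It was below the floor in both normoxia arrays, so its difference has no measured size, and the 3 brighter UQCRH probe sets differed with hypoxia by -0.17 to 0.040.

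**Figure D4:**
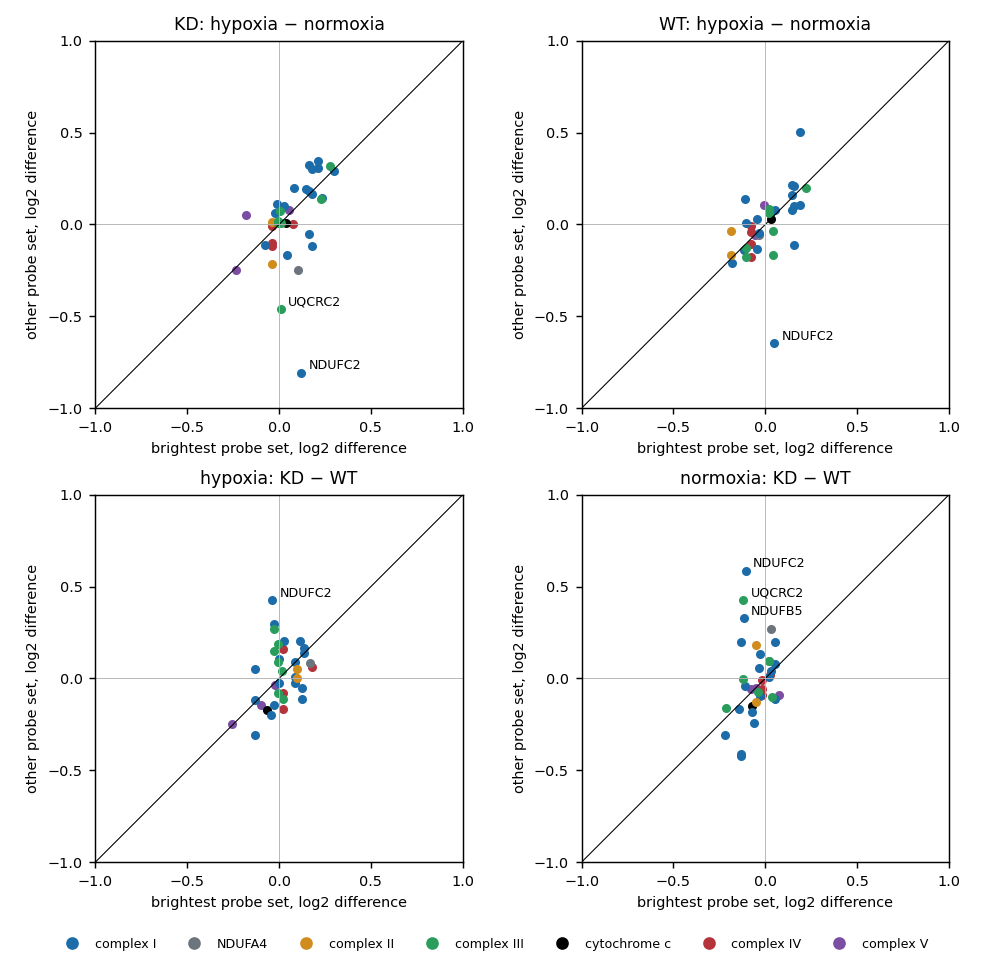
Log2 difference of a gene's brightest probe set (horizontal axis) and of its other probe sets above the floor in every array (vertical axis), for 26 OXPHOS genes in the 4 comparisons. Points on the diagonal agree, and the dim NDUFC2 probe set lies farthest from it.

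The remaining OXPHOS subunits and the genes that build, feed and regulate the chain were taken from further lists. Of 32 other OXPHOS subunits 17 were above the floor, and limma called 0 in either term. Of all genes 4.72% rose and 4.17% fell with hypoxia, and 2.94% rose and 2.43% fell for genotype. For hypoxia 2 of the 17 (11.8%) had an unadjusted limma p under 0.05, beside 23.7% of all genes. For genotype 3 (17.6%) had such a p, beside 22.3% of all genes. NDUFA3, a small complex I subunit, was lower with hypoxia by 0.19 (adjusted p = 0.164) and higher in KD cells by 0.24 (adjusted p = 0.102). NDUFA7 was higher in KD cells by 0.23 (adjusted p = 0.110) and NDUFC1 by 0.13 (adjusted p = 0.201). The muscle isoform COX6A2 had the widest hypoxia estimate (-0.46, adjusted p = 0.242) but was below the floor in both hypoxia arrays, and NDUFB7 was at -0.17 (adjusted p = 0.271).

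Assembly factors, which build the complexes without staying in them, were called as follows. Of 37 above the floor 3 rose and 3 fell with hypoxia (8.11% each, beside 4.72% and 4.17% of all genes), and 2 rose and 1 fell for genotype (5.41% and 2.7%, beside 2.94% and 2.43%). No difference from all genes was tested. COX17, the copper chaperone of complex IV, read 1481 (KD) and 1166 (WT) in hypoxia against 903 (KD) and 833 (WT) in normoxia and rose by 0.59 (SE 0.092, adjusted p = 0.00429). NDUFAF2 and FOXRED1, complex I factors, also rose, and COX11 (-0.49, adjusted p = 0.0388), COA6 (-0.42, adjusted p = 0.0255) and NDUFAF3 fell. COX11 and COA6 serve copper delivery to complex IV, as COX17 does. For genotype CMC1 rose by 0.50 (adjusted p = 0.0228) and SDHAF4 by 0.38 (adjusted p = 0.0458), and FOXRED1 fell by 0.44 (adjusted p = 0.0345).

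Of 12 TCA cycle genes 0 rose and 1 fell with hypoxia (8.33%, where 4.17% of all genes fell), IDH3G, a subunit of NAD-dependent isocitrate dehydrogenase (-0.31, adjusted p = 0.0466). For genotype 1 rose (8.33%, beside 2.94% of all genes), the NADP-dependent IDH2 (0.33, adjusted p = 0.0221). FH, fumarase, was lower in both terms without passing (-0.25 and -0.21, adjusted p = 0.0851 and 0.160). Of 12 biogenesis and mitochondrial transcription genes, 1 rose with hypoxia (8.33%, beside 4.72% of all genes), the coactivator PPRC1 (0.39, adjusted p = 0.0401), and 2 fell for genotype (16.7%, beside 2.43%). POLRMT, the mitochondrial RNA polymerase, fell in the genotype term by 0.47 (adjusted p = 0.0236), as did POLG2, a subunit of the mitochondrial DNA polymerase, by 0.49 (adjusted p = 0.0303). POLRMT read 584 (KD) and 802 (WT) in hypoxia against 482 (KD) and 684 (WT) in normoxia, both KD arrays below both WT arrays. The genotype estimate of largest size in this list was that of PPARGC1B (-0.60), which did not pass (adjusted p = 0.123). PPARGC1B reached the floor only in the WT arrays. PPARGC1A, NRF1 and ESRRA, regulators of mitochondrial gene expression, were below the floor in each array.

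Of 69 mitochondrial ribosome genes 1 rose and 3 fell with hypoxia (1.45% and 4.35%), and 1 rose for genotype (1.45%). These shares were near or under those of all genes, 4.72%, 4.17% and 2.94%. MRPL50 read 758 (KD) and 879 (WT) in hypoxia against 371 (KD) and 482 (WT) in normoxia and rose by 0.92 (adjusted p = 0.000662). MRPS15 fell by 0.65 (adjusted p = 0.00293) and MRPL1 by 0.44 (adjusted p = 0.0144). MRPL13 rose in the genotype term by 0.34 (adjusted p = 0.0446). MRPL10 had the largest genotype estimate of this list (0.62) but did not pass (adjusted p = 0.277).

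Of 11 HIF-linked mitochondrial regulators 0 rose and 1 fell with hypoxia (9.09%, where 4.17% of all genes fell), and 2 rose and 0 fell for genotype (18.2%, where 2.94% of all genes rose). PDK1, the kinase that holds back pyruvate oxidation, read 927 (KD) and 455 (WT) in hypoxia, against 3568 (KD) and 488 (WT) in normoxia. KD normoxia was far the highest array, and the genotype term was 1.91 (SE 0.32, adjusted p = 0.0131). BNIP3L, a mitophagy receptor, read 823 (KD) and 378 (WT) in hypoxia against 2029 (KD) and 641 (WT) in normoxia, a hypoxia term of -1.01 (adjusted p = 0.00153) and a genotype term of 1.36 (adjusted p = 0.00132). In the array labelled KD normoxia, where PDK1 and BNIP3L were highest, the OXPHOS genes were a median 0.039 below WT normoxia, and 0 of 44 differed from it by 1.5-fold. The bright genes had a median of -0.024 in this pair, and only 0.479% of them passed 1.5-fold either way. Of all genes 3.76% passed it upward and 2.82% downward.

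**Figure D5:**
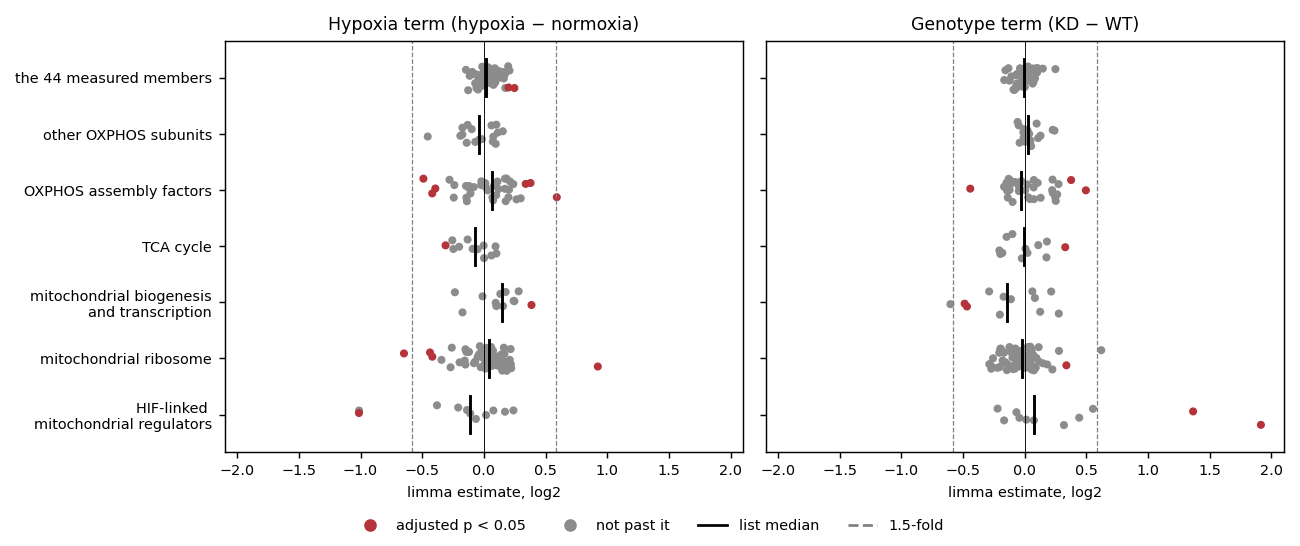
Limma estimates (log2 scale) of the hypoxia and genotype terms for the OXPHOS genes and for each further list, 1 point per gene above the floor. In the genotype term the OXPHOS genes span -0.17 to 0.25, while the HIF-linked genes reach 1.91 (PDK1).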

How the data were processed

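RNA of 4 MDCKII samples was labelled from 100 ng of total RNA with a 3' IVT kit, per the labels' protocols. The authors deposited 1 linear intensity per probe set and array. Which software made them, with which background correction and scaling, is not given in the sources used here. Trimmed means without the lowest and highest 2% were 310 to 315 per array. Between 1065 and 1129 values per array were exactly 1.

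Values were turned to log2(intensity + 16), so folds of dim genes are understated. Of the probe sets, 29254 had 1 symbol, 439 several and 13231 none in the platform annotation. Of those with 1, 27680 matched a RefSeq gene table by gene ID and 0 symbols changed. A gene was its probe set with the highest mean, kept if any array reached the median log2 value. With 1 array per group, comparisons of 2 arrays are values without a test. The test was an additive model (lmFit, eBayes with trend, two-sided, Benjamini-Hochberg over 9834 genes at 0.05) in limma 3.58.1 and R 4.3.3, tested on simulated data. Comparison with genes as bright as the median member was added after the data were seen.

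Named in full were HIF1A, the isoform pairs, and per complex the genes called and the 3 with the largest differences in each comparison. Of each further list, genes were named from those called and from the 3 largest estimates per term, but not all of these are given. The members, lists and marker lists were chosen with earlier results of these data known. Alternatives were 3 scalings, 3 floors, pseudocounts of 1 and 64, a 2-fold threshold, the median over probe sets, and a prior without trend or with robust fitting. No sequences or coordinates are given because no genome or sequence table was used.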

Additional observations from a re-analysis of the deposited data

Results flagged for a closer look

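Of 44 OXPHOS genes above the floor, 3 had differences of opposite sign between the pairs of arrays, each larger than the median distance between probe sets of 1 gene. With 1 array per group these differences were not tested, and the share of all genes that meets the same rule is not given. Signs were shared for hypoxia by 70.5% of OXPHOS genes, 75.1% of bright genes and 66.3% of all genes. For genotype these shares were 68.2%, 69% and 66.6%. The COX4I1 value in KD cells, 0.0744, only just exceeded the median distance of that pair, 0.0742. For hypoxia minus normoxia, COX4I1 was at 0.074 in KD cells and -0.080 in WT cells, so the WT response minus the KD response was -0.15. NDUFS3 was at 0.080 in KD cells and -0.11 in WT cells, a difference of -0.19. Its second probe set was at 0.20 in KD cells and 0.0055 in WT cells, so it did not have opposite signs, while its difference of the responses was again -0.19. For KD minus WT, NDUFA9 was at 0.14 in hypoxia and -0.11 in normoxia, and the normoxia value minus the hypoxia value was -0.25. The second COX4I1 probe set gave 0.0013 and -0.042, which is smaller but has the same signs. The second NDUFA9 probe set gave 0.17 in hypoxia and -0.044 in normoxia.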

How the results depend on the processing

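Of 189 values of the counts and medians over OXPHOS genes under these alternatives, 180 kept their call or stayed within the spread allowed, 9 moved and 0 reversed a call. Without the floor NDUFA4L2 enters, and it alone made 1 gene at least 1.5-fold lower in WT hypoxia minus normoxia, 1 higher in KD minus WT in hypoxia and 1 lower in the difference of the responses. Its values are below the floor, so these sizes are not measured. The 2 hypoxia calls became 0 without the floor and 0 without the intensity trend. Without the trend limma called 3 genes that rose and 4 that fell with hypoxia among all 9834, and 0 for genotype, where 1733 had an unadjusted p under 0.05. With the median over probe sets the hypoxia term called 1 gene lower, NDUFC2 (-0.32, adjusted p = 0.0458), and NDUFV2 was newly called higher (0.20, adjusted p = 0.0414). Quantile normalization called 1 gene higher for genotype, NDUFA6 (0.26, adjusted p = 0.0101), where the prior had infinite degrees of freedom. Median centring turned the median KD minus WT difference to 0.030 in hypoxia and -0.011 in normoxia. No scaling moved the median of all genes by more than 0.032. Over the alternatives the median hypoxia difference ran from 0.028 to 0.055 in KD cells and from -0.020 to 0.011 in WT cells. The median difference of the responses ran from -0.088 (quantile) to -0.031 (median over probe sets), beside -0.065. The adjusted p of UQCRQ ran from 0.000161 (quantile) to 0.281 (no trend), and that of NDUFB6 from 0.0145 to 0.335. No paired analysis was possible because each group has 1 array and the labels give no shared replicate number, and no replicate could be left out. The number of arrays and the distance between probe sets of 1 gene limit what can be seen for differences of this size.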
